A study of Rattus norvegicus with 144 samples.

Results

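The livers of rats killed 3 h after a toxic dose of acetaminophen, 2000 mg/kg, were compared with the livers of rats given the vehicle alone and killed at the same time. The rats were chosen by joining the rat number in each label to the deposited key of doses and keeping the 3 h rats at 2000 mg/kg and at 0 mg/kg. This gave 6 dosed and 6 vehicle rats, with 24 arrays, of 72 rats in the series. No measured expression value entered the choice.

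The inbred strain was F344/N, and all animals were males of 10 to 12 weeks. The drug was given by mouth in 0.5% ethyl cellulose, split into 2 doses, and the vehicle rats had the ethyl cellulose without the drug. Total RNA came from the left lobe of the liver. On each array the RNA of 1 rat was hybridised against a control pool, made of equal parts of RNA from 6 vehicle-treated rats killed at that time. Each rat had 2 arrays with the dyes exchanged. The labels do not say whether the 6 vehicle rats compared here are those of the pool.

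Acetaminophen is an analgesic that is cleared mostly by conjugation in hepatocytes. After an overdose, cytochrome P450 enzymes turn more of it into a reactive quinone imine, which uses up glutathione and then binds proteins. Loss of glutathione and binding of proteins come early after dosing, whereas necrosis around the central veins and the entry of inflammatory cells come later. The stressed animal also releases glucocorticoids, glucagon and catecholamines, which act on liver genes of amino acid breakdown and glucose production.

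Values are log2 ratios of the rat over the pool, so that 0 means the level of the pool and 1 means a doubling. The base of the deposited logarithm and the direction of the ratio are not stated. Base 10 was assumed, and another base would scale every value by a common factor, which leaves the adjusted p-values as they are but would change fold differences and counts that need a minimum fold. The direction is likely and not certain: it rests on metallothioneins and on Hmox1, Nqo1 and Gclm, known to rise after this drug, which were higher than vehicle at 24 h. A difference is the mean of the 6 dosed rats minus the mean of the 6 vehicle rats, with its standard error (SE), and every adjusted p is from limma fitted to all 72 rats, with Benjamini-Hochberg adjustment over 18978 gene rows. A row is 1 gene symbol or 1 probe without a single symbol. The words rose and fell are kept for differences with an adjusted p under 0.05.

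Arrays of this kind carry no read depth, and the number of rats limits the precision. With the dyes exchanged, both arrays of 1 rat should mirror each other once the average dye bias is taken off, but their correlation was above -0.1 in vehicle rats 1009 and 3420 and in dosed rats 2730, 7365 and 7763. A set of 500 blank probes was shared by 49 arrays of the series, among them both arrays of dosed rats 7515, 7763 and 8596 and 1 array of vehicle rat 2698. Fits were repeated without these libraries, with the set of blank probes as a covariate and with a quality weight for each rat. Replicates were separate rats, as the labels number them.

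At 3 h and 2000 mg/kg, 1713 gene rows, or 9.03% of those tested, differed from vehicle. Of these 934 were higher (4.92% of rows) and 779 were lower (4.1%). The counts of list members given below are to be read beside these shares. A difference of at least 2-fold was seen in 219 of the higher and 81 of the lower rows. The 6 dosed and the 6 vehicle rats did not overlap in 1159 rows, or 6.11%. The median difference over all rows was 0.004. Without the rats whose arrays did not mirror each other, 12 in the series and 5 of them compared here, 666 rows were called. Among rats with no array in the set of shared blank probes 871 were called. That fit left out 23 rats of the series with both arrays in the set and 3 with 1 array. Of the rats compared here these subsets left 4 vehicle and 3 dosed rats, and 5 vehicle and 3 dosed rats. Each subset kept rats that the other left out, and of the dosed rats only 4176 was in both.

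**Figure D1:**
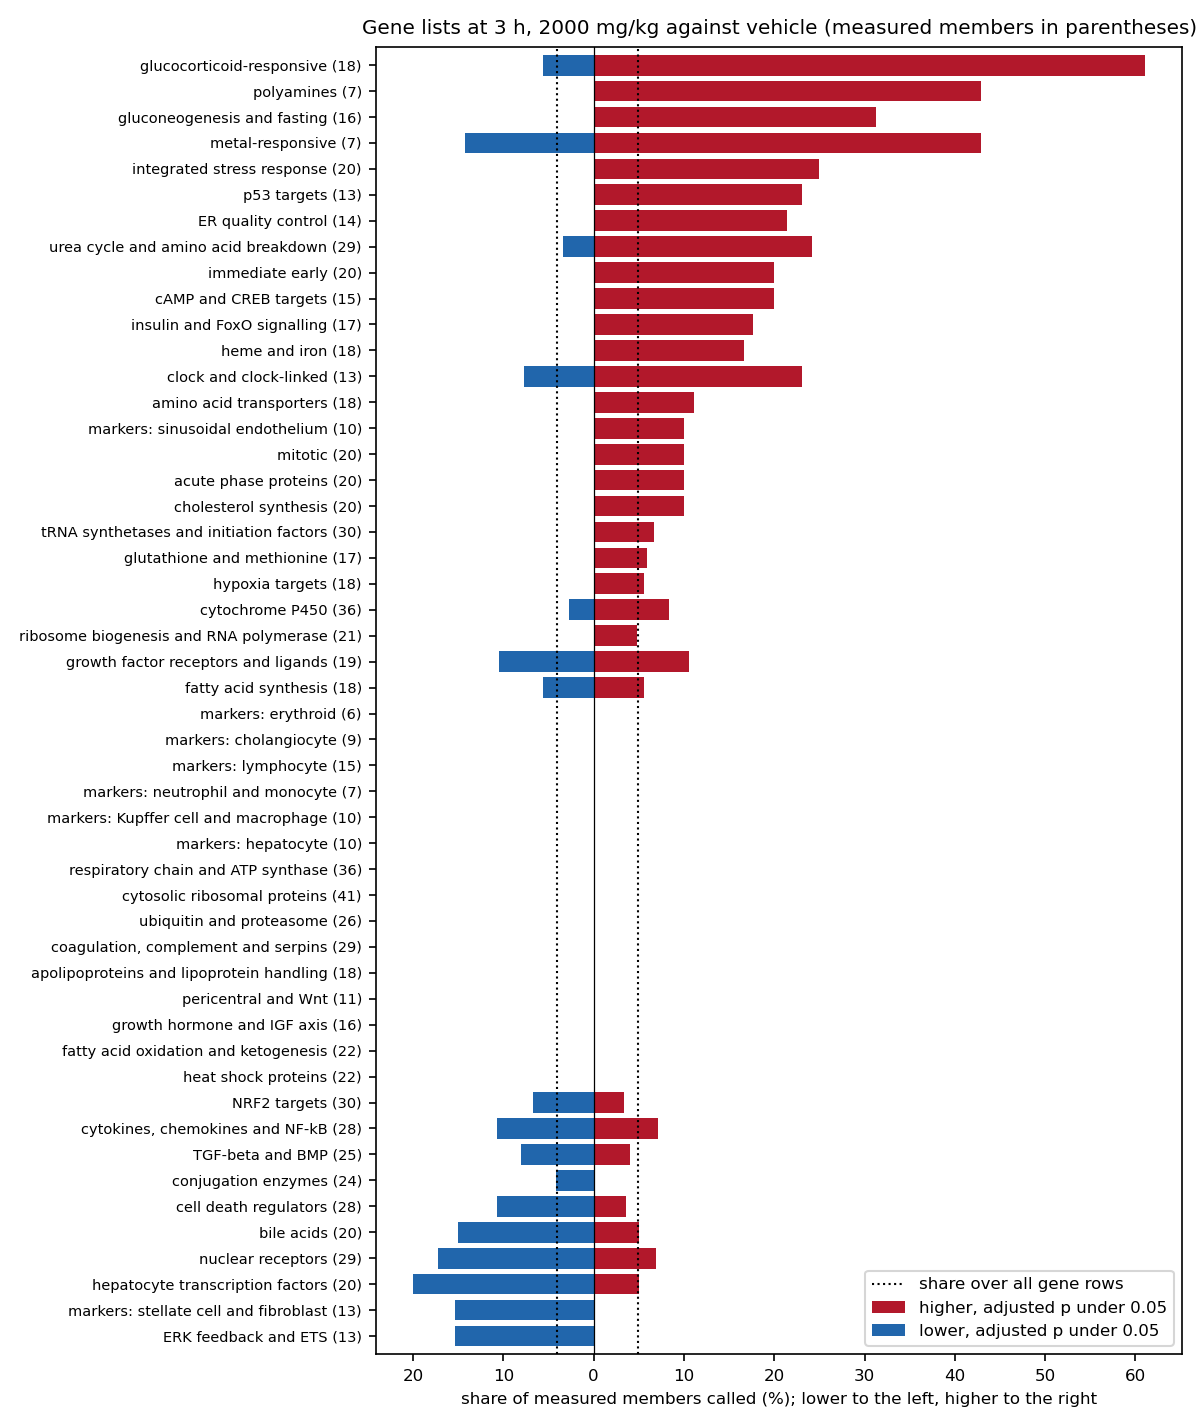
Shares of the measured members of 50 gene lists that were higher (red, to the right) or lower (blue, to the left) than vehicle at 3 h and 2000 mg/kg at an adjusted p under 0.05, in percent. Dotted lines mark the shares over all gene rows, 4.92% higher and 4.1% lower, and the glucocorticoid-responsive list stands farthest to the right.

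Genes that respond to glucocorticoids, the adrenal stress hormones, were the most often higher of the 50 lists examined. The lists were chosen with earlier results of these data known, so this rank is a description and not an independent test. Some members, such as Ddit4 and Nfkbia, are also on other lists. Of 18 measured members 11 rose and 1 fell, and their median difference was 0.75, beside 0.004 over all rows. Ddit4, an inhibitor of the growth kinase mTORC1, lay at -0.57 to 0.68 (median -0.14) in vehicle rats and at 1.99 to 2.17 (median 2.03) in dosed rats. The groups did not overlap, and the difference was 2.06 ± 0.26 (adjusted p = 9.87e-09). Nfkbia, the inhibitor that holds NF-kB in the cytoplasm, lay at -0.68 to 0.62 (median -0.08) in vehicle rats and at 1.39 to 1.69 (median 1.52) in dosed rats, again without overlap (1.55 ± 0.21). Fkbp5, a co-chaperone of the glucocorticoid receptor, rose by 1.64 ± 0.29, with every dosed rat above every vehicle rat. The kinase Sgk1 rose by 1.65 ± 0.30, but its highest vehicle rat, at 1.16, was above the lowest dosed rat, at 0.98. Errfi1, which restrains the epidermal growth factor receptor, rose by 0.87 ± 0.17.

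The 1 member that fell was Nr3c1, the glucocorticoid receptor itself. It lay at -0.62 to 0.07 (median -0.19) in vehicle rats and at -1.33 to -0.87 (median -1.05) in dosed rats, a difference of -0.88 ± 0.15 (adjusted p = 1.36e-05). Every dosed rat was below every vehicle rat. Per1, a clock gene that is also on this list, rose by 1.17 ± 0.37, but its call was lost in 4 of 12 fits that left out 1 rat, with an adjusted p of up to 0.117 without vehicle rat 1009. Among rats with no array in the set of shared blank probes 7 members rose, and 5 rose without the rats whose arrays did not mirror each other, with Nr3c1 lower in both.

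**Figure D2:**
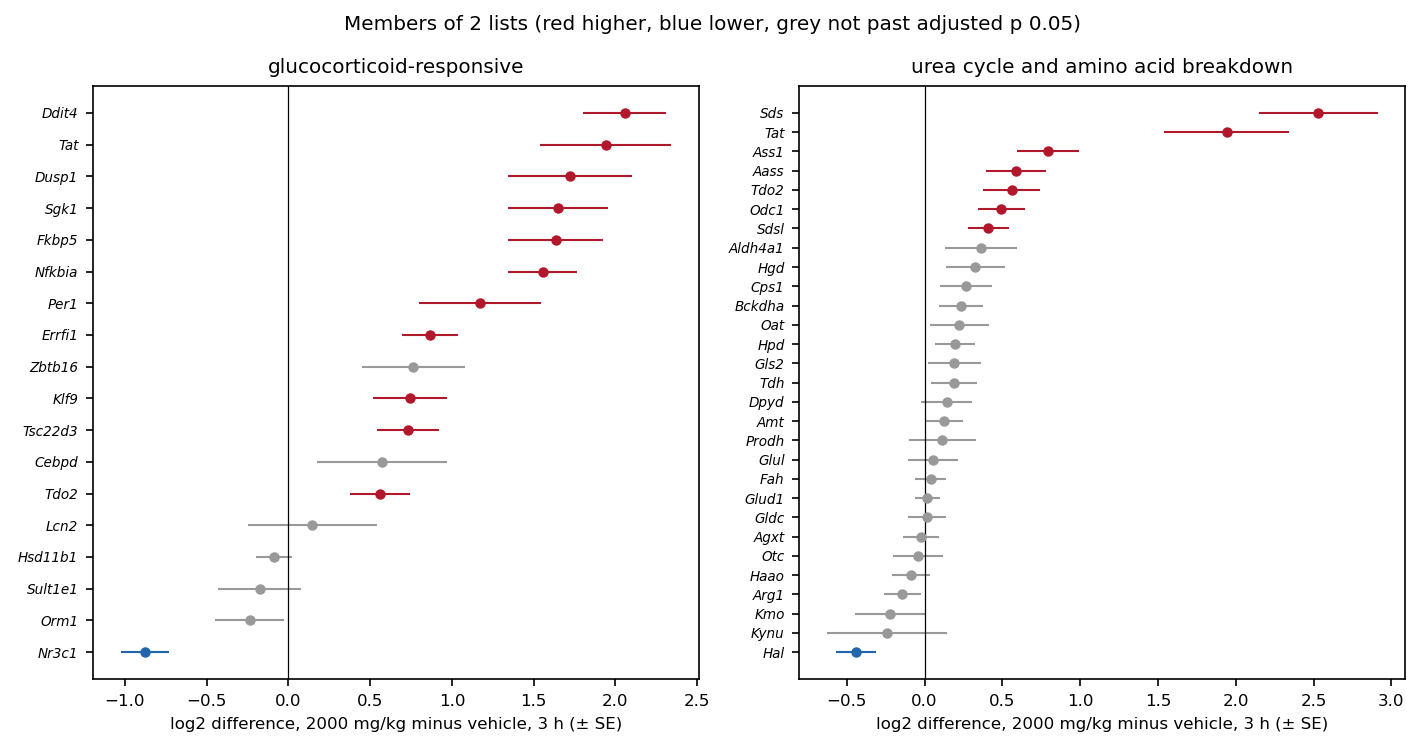
Log2 difference of 2000 mg/kg minus vehicle at 3 h, with its SE, for every measured member of the glucocorticoid-responsive list (left) and of the list of the urea cycle and amino acid breakdown (right). Red points rose, blue points fell and grey points did not pass an adjusted p of 0.05, and Ddit4 at 2.06 and Sds at 2.53 lie farthest right.

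Amino acid uptake and breakdown held some of the largest rises. Slc38a2, a sodium-coupled transporter of small neutral amino acids, had the largest difference of any gene with a symbol. It lay at -0.90 to 0.54 (median -0.14) in vehicle rats and at 3.07 to 3.78 (median 3.42) in dosed rats, a difference of 3.63 ± 0.40 (adjusted p = 4.9e-10). The lowest dosed rat was far above the highest vehicle rat. The related transporter Slc38a4 rose by 0.70 ± 0.19, and the other 16 of 18 measured amino acid transporters did not pass.

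Of 29 genes of the urea cycle and amino acid breakdown 7 rose and 1 fell, with a median of 0.19. Sds, which turns serine into pyruvate, lay at -0.84 to 1.64 (median 0.15) in vehicle rats and at 2.45 to 3.18 (median 2.81) in dosed rats (2.53 ± 0.38). Tat, the first enzyme of tyrosine breakdown, lay at -0.87 to 1.76 (median 0.77) in vehicle rats and at 2.25 to 2.87 (median 2.58) in dosed rats (1.94 ± 0.40). Neither gene overlapped between the groups, although the vehicle rats were spread more widely than the dosed rats. Ass1, the urea cycle enzyme that joins citrulline to aspartate, rose by 0.80 ± 0.20. The member that fell was Hal, which starts histidine breakdown (-0.44 ± 0.13), and its call was lost without dosed rat 7763 (adjusted p = 0.0626). Without the rats whose arrays did not mirror each other 1 member rose and 0 fell.

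Among genes induced by fasting or used to make glucose, 16 were measured, of which 5 rose and 0 fell. Besides Sds and Tat these were Got1, Slc25a25 and Pck1. Got1, the cytosolic aspartate aminotransferase, lay at -0.27 to 0.80 (median 0.20) in vehicle rats and at 2.42 to 2.88 (median 2.73) in dosed rats, without overlap (2.48 ± 0.29, adjusted p = 2.36e-09). Slc25a25, which carries adenine nucleotides into mitochondria, rose by 2.27 ± 0.25. Pck1, the enzyme that commits carbon to glucose, differed less (0.71 ± 0.18), although all 6 dosed rats were above all 6 vehicle rats. The 2 Pck1 arrays of dosed rat 2730, however, were 1.57 apart. Pck1 lost its call on arrays with own RNA in Cy5 alone. Pck1 and Tat lost it with limma without the rats whose arrays did not mirror each other (adjusted p = 0.212 and 0.0568). Sds, Got1 and Slc25a25 kept it there.

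Igfbp1, a secreted protein that binds insulin-like growth factors and is held down by insulin, lay at -1.42 to 0.83 (median 0.36) in vehicle rats and at 2.99 to 3.78 (median 3.3) in dosed rats. The groups did not overlap, and the difference was 3.28 ± 0.52 (adjusted p = 3.76e-06). It was 1 of 3 members that rose, with 0 that fell, among 17 genes of insulin and FoxO signalling. The others were Sesn1, a sestrin that restrains mTORC1 (1.04 ± 0.18), and Pik3r1, a regulatory subunit of phosphoinositide 3-kinase (0.61 ± 0.19). Pik3r1 lost its call in 5 of 12 fits that left out 1 rat, with an adjusted p of up to 0.0931 without vehicle rat 1009.

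**Figure D3:**
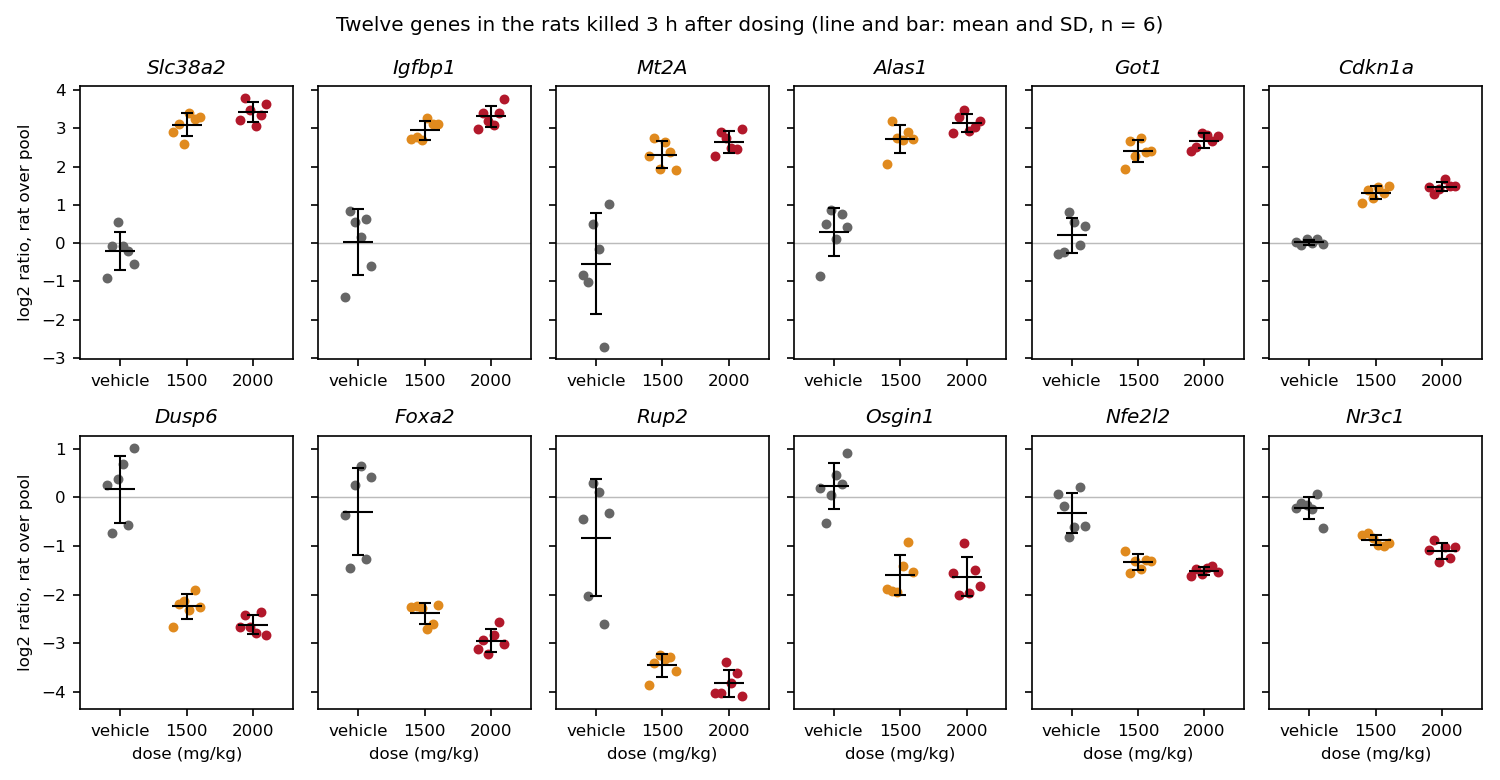
Log2 ratio of rat over pool for 12 genes in the rats killed at 3 h, with 6 rats each for vehicle, 1500 mg/kg and 2000 mg/kg. Points are rats, and the line and bar are the mean and SD. The upper row shows genes that rose and the lower row genes that fell, and in the lower row the vehicle rats are widest for Rup2.

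Metallothioneins, small proteins that bind zinc and copper, were among the highest genes. Their promoters carry metal response elements, short sites bound by the zinc sensor MTF1. The promoters of the 3 measured metallothioneins and of the zinc exporter Slc30a1 are shown because they belong to the metal-responsive list. Each runs 5′ to 3′ in the direction of the gene, from 250 bases before to 50 after the RefSeq start (GRCr8), and capitals mark TGCGCNC or TGCACNC on either strand. The windows are chr19:10832926-10833225 (Mt1, minus strand), chr19:10838659-10838958 (Mt2A, minus strand), chr19:10856031-10856330 (Mt3, minus strand) and chr13:106021769-106022068 (Slc30a1, plus strand).
Mt1: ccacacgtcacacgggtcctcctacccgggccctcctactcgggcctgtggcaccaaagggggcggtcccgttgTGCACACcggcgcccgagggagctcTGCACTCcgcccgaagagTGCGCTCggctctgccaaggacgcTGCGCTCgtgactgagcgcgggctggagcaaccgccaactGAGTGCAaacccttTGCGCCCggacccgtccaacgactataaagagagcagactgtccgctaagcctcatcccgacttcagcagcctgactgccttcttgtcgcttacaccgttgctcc
Mt2A: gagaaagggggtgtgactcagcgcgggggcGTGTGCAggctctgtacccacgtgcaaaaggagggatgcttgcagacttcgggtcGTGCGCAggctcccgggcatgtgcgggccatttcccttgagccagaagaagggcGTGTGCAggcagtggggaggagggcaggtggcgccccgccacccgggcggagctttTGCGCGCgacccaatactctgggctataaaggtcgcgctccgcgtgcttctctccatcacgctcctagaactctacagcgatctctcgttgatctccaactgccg
Mt3: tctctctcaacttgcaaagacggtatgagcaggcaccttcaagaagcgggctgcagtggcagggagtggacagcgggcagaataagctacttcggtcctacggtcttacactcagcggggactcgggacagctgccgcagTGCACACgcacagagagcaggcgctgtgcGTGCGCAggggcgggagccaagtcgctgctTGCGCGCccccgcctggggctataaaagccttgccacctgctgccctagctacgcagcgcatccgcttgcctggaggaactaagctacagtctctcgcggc
Slc30a1: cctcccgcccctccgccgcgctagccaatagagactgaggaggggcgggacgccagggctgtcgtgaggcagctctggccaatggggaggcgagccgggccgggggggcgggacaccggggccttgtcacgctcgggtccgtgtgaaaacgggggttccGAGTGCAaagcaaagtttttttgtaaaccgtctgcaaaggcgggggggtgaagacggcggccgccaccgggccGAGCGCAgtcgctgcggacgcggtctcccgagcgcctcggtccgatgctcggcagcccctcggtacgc
These windows held 6, 4, 3 and 2 matches, in that order. At least 1 match was in 24.2% of all 33469 promoters in the table and in 36.5% of the 7947 measured genes that had a promoter there. Of 6 metal-responsive genes with a promoter 5 held a match. Among genes that rose the share was 44.9% (191 of 425), and among genes that fell it was 34.2% (103 of 301). A match describes the letters and not a bound site.

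Mt2A lay at -2.71 to 1.01 (median -0.50) in vehicle rats and at 2.28 to 2.99 (median 2.62) in dosed rats, and Mt1 at -2.46 to -0.28 (median -0.71) and 1.05 to 1.86 (median 1.24). The vehicle rats spread over more than 2 log2 units for both genes, yet no dosed rat reached down to them. The differences were 3.18 ± 0.48 and 2.36 ± 0.42 (adjusted p = 1.33e-06 and 3.84e-05). Mt3, best known from brain, differed by 1.66 ± 0.37. Whether its probe also binds RNA of the other metallothioneins was not tested. The sensor gene Mtf1 fell, at -0.82 ± 0.13, with every dosed rat below every vehicle rat. The exporter Slc30a1 was at 0.72 ± 0.39 and did not pass. In all 3 of 7 measured members of the metal-responsive list rose and 1 fell.

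Alas1, the first and rate-limiting enzyme of heme synthesis in liver, lay at -0.86 to 0.86 (median 0.46) in vehicle rats and at 2.88 to 3.49 (median 3.11) in dosed rats. The groups were far apart, and the difference was 2.84 ± 0.33 (adjusted p = 1.43e-09). Of 18 heme and iron genes 3 rose and 0 fell, the others being the transferrin receptor Tfrc (0.74 ± 0.20) and the iron importer Slc11a2 (0.41 ± 0.12). Slc11a2 lost its call in 2 of 12 fits that left out 1 rat, with an adjusted p of up to 0.117 without vehicle rat 2698. Its 2 arrays of dosed rat 7365 read 1.86 and -1.08. Tfrc lost its call on arrays with own RNA in Cy5 alone, and Slc11a2 with either dye orientation alone. Both lost it with limma among rats with no array in the set of shared blank probes (adjusted p = 0.0569 and 0.159). Without the rats whose arrays did not mirror each other both lost it as well (adjusted p = 0.416 and 0.0549). Heme is the cofactor of cytochrome P450 enzymes. The list of these enzymes, which also holds their reductase Por, had 36 members measured. Of these 3 rose (8.33%), Por among them, and 1 fell (2.78%), beside 4.92% and 4.1% of all rows. Por, the reductase that passes electrons to these enzymes, lay at -0.42 to 0.75 (median 0.10) in vehicle rats and at 1.42 to 1.58 (median 1.52) in dosed rats (1.38 ± 0.18, adjusted p = 3.05e-08). Cyp26a1, which breaks down retinoic acid, rose by 1.11 ± 0.14, and Cyp2u1, an enzyme of long-chain fatty acids, fell (-0.57 ± 0.10). Retinoic acid receptor alpha, Rara, fell as well (-0.79 ± 0.17). Of 24 conjugation enzymes 0 rose and 1 fell (4.17%, beside 4.1% of all rows), the arylamine acetyltransferase Nat1 (-0.80 ± 0.14).

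Targets of NRF2, the transcription factor of antioxidant defence, were called about as often as other rows at 3 h. Of 30 members 1 rose (3.33%) and 2 fell (6.67%), beside 4.92% and 4.1% of all rows, with a median of 0.05. Nfe2l2, the gene of NRF2 itself, lay at -0.81 to 0.21 (median -0.38) in vehicle rats and at -1.62 to -1.41 (median -1.5) in dosed rats. The dosed rats lay close together and below every vehicle rat (-1.19 ± 0.15, adjusted p = 1.34e-08). Osgin1, a growth inhibitor induced by oxidative stress, was the other that fell, and the export pump Abcc3 rose (0.74 ± 0.19). Osgin1 lay at -0.53 to 0.92 (median 0.24) in vehicle rats and at -2.01 to -0.93 (median -1.69) in dosed rats, without overlap (-1.86 ± 0.36, adjusted p = 0.000141). Hmox1, the heme-degrading enzyme, differed by -0.12 ± 0.50, the quinone reductase Nqo1 by 0.04 ± 0.16 and Gclm, the modifier subunit of glutathione synthesis, by -0.06 ± 0.20. The groups overlapped for each of the 3, with adjusted p of 0.935, 0.922 and 0.92. Among 17 genes of glutathione and methionine metabolism 1 rose (5.88%), Ahcy, which clears S-adenosylhomocysteine (0.43 ± 0.11).

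Heat shock proteins gave 0 calls in 22 genes with limma over 72 rats, where 4 had an unadjusted p under 0.05. The inducible chaperone Hspa1a lay at -0.03 to 0.05 (median 0.03) in vehicle rats and at 0.94 to 1.95 (median 1.48) in dosed rats. The groups did not overlap, but the difference of 1.45 ± 0.58 had an adjusted p of 0.114 with the spread shared by all 12 groups of the series. With limma on the 12 compared rats alone the adjusted p was 0.000124. Hspa8, its constitutive relative, was at 0.44 ± 0.21, and the co-chaperones Dnajb1 and Dnaja1 at 0.64 ± 0.31 and -0.43 ± 0.17. These 3 genes also passed on the compared rats alone, with adjusted p of 0.00596, 0.00837 and 0.0015. The same fit gained calls for 7 named genes and lost them for 7 others, Cyp27a1, Id4, Nr4a1, Pik3r1, Ppara, Sesn2 and Slc11a2.

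Immediate early genes, which are transcribed within minutes of a signal, gave 4 rises and 0 falls in 20 members, with a median of 0.36. Gadd45b, a stress-induced activator of MAP kinase signalling, lay at -0.57 to -0.10 (median -0.20) in vehicle rats and at 1.34 to 2.29 (median 1.88) in dosed rats (2.15 ± 0.42). Zfp36, which destabilises cytokine mRNAs, rose by 0.95 ± 0.15, and the antiproliferative Btg1 by 0.76 ± 0.21. Egr1 was at 1.72 ± 0.65 without overlap between the groups, and its adjusted p was 0.0899 (0.00158 on the compared rats alone).

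Dusp6, the phosphatase that switches off ERK and is itself induced by ERK, had one of the largest falls. It lay at -0.74 to 1.01 (median 0.31) in vehicle rats and at -2.84 to -2.36 (median -2.67) in dosed rats, a difference of -2.79 ± 0.35 (adjusted p = 9.87e-09). Every dosed rat was far below every vehicle rat. Of 13 genes of ERK feedback and ETS factors 0 rose and 2 fell. The other was Ier3 (-0.78 ± 0.22), whose call was lost without vehicle rat 1009 (adjusted p = 0.0616). The other 11 did not pass, and the list median was 0.005.

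Of 15 genes of cAMP signalling 3 rose, Sik1, Nr4a1 and Per1, and 0 fell. Their 3 calls were lost with limma without the rats whose arrays did not mirror each other (adjusted p = 0.125, 0.27 and 0.436). Those of Nr4a1 and Per1 were also lost among rats with no array in the set of shared blank probes (adjusted p = 0.0867 and 0.12). Sik1, a kinase induced by CREB, the transcription factor activated by cAMP, rose by 1.4 ± 0.29. The nuclear receptor Nr4a1 rose by 1.76 ± 0.52, but its call was lost in 3 of 12 fits that left out 1 rat, with an adjusted p of up to 0.0847 without vehicle rat 2698, whose 2 arrays read 0.90 and -4.06. The CREB site TGACGTCA was in 1.83% of all promoters in the table, in 2.82% of measured genes, in 4% of genes that rose and in 3.65% of genes that fell. Among the genes named as the 15 largest rises with a promoter in the table it was in 1 of 13, Slc25a25. It was also in Ppp1r15a, and both windows are shown to place it (capitals), at chr3:36116532-36116831 for Slc25a25 and chr1:105139547-105139846 for Ppp1r15a, both on the minus strand of GRCr8.
Slc25a25: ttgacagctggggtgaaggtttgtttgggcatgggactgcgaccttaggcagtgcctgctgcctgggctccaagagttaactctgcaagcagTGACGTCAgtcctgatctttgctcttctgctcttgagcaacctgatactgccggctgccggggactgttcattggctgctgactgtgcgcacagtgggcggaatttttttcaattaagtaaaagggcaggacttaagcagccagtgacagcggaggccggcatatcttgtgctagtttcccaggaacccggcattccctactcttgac
Ppp1r15a: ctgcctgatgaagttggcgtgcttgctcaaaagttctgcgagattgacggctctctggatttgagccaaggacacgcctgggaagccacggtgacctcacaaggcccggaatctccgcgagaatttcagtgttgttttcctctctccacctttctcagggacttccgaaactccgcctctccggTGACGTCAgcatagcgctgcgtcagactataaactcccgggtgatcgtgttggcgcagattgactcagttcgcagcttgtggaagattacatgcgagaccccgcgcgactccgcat
The sequence lay in the promoters of neither Sik1 nor Nr4a1 in these windows.

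The integrated stress response, which lowers translation and induces amino acid genes, gave 5 rises and 0 falls in 20 members with a median of 0.14. Ppp1r15a, which restores translation by dephosphorylating eIF2α, lay at -0.33 to 0.84 (median 0.21) in vehicle rats and at 1.09 to 2.29 (median 1.52) in dosed rats (1.4 ± 0.35). Ddit4 was another. The remaining members that rose were Sesn2 (0.76 ± 0.22), the mitochondrial folate enzyme Mthfd2 (0.81 ± 0.24) and Chac1, which degrades glutathione (1.09 ± 0.34). Their calls were lost in 1, 2 and 5 of 12 fits that left out 1 rat. The adjusted p reached 0.0722 for Sesn2 without vehicle rat 1009, 0.0712 for Mthfd2 without vehicle rat 2698 and 0.119 for Chac1 without dosed rat 7365. Without the rats whose arrays did not mirror each other, Ddit4 alone of these 5 kept its call with limma. The adjusted p was then 0.191 for Ppp1r15a, 0.339 for Sesn2, 0.318 for Mthfd2 and 0.321 for Chac1. Trib3, a pseudokinase induced late in the integrated stress response, was at 0.51 ± 0.34 and did not pass.

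Quality control in the endoplasmic reticulum gave 3 rises and 0 falls in 14 genes. Herpud1, a scaffold of the degradation complex, lay at -0.46 to 0.04 (median -0.21) in vehicle rats and at 1.02 to 1.3 (median 1.2) in dosed rats, without overlap (1.37 ± 0.18). Edem1, which hands misfolded glycoproteins to degradation, rose by 1.04 ± 0.20.

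Of 13 p53 targets 3 rose and 0 fell. The 3 were also called in both subsets of rats, each of which left out 1 kind of rats in doubt and kept some of the other kind. Cdkn1a, the inhibitor of cyclin-dependent kinases, lay at -0.05 to 0.11 (median 0.02) in vehicle rats and at 1.3 to 1.68 (median 1.47) in dosed rats. The vehicle rats lay close together, and the groups were separated by more than 1 log2 unit (1.45 ± 0.21). Tp53inp1 rose by 1.1 ± 0.18. Of 20 mitotic and cell cycle genes 2 rose and 0 fell, the replication clamp Pcna (0.56 ± 0.10) and cyclin Ccne1 (1.06 ± 0.26). Amd1, which makes the aminopropyl donor of polyamines, lay at -0.29 to 0.07 (median -0.04) in vehicle rats and at 1.19 to 1.68 (median 1.32) in dosed rats (1.49 ± 0.12, adjusted p = 1.39e-14). It was 1 of 3 polyamine genes of 7 that rose. Of 30 genes of tRNA synthetases and translation factors 2 rose, or 6.67% beside 4.92% of all rows. They were the RNA helicase Eif4a1 (0.57 ± 0.14) and the elongation factor Eef1a1 (0.42 ± 0.12).

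Foxa2, a factor that opens chromatin at hepatocyte genes, had the deepest fall among the transcription factors of hepatocytes. It lay at -1.45 to 0.65 (median -0.05) in vehicle rats and at -3.22 to -2.57 (median -2.97) in dosed rats, a difference of -2.65 ± 0.33 (adjusted p = 9.05e-09). All dosed rats were below every vehicle rat, the lowest of which was at -1.45. Of 20 such factors 1 rose and 4 fell, with a median of -0.22. The bile acid receptor Nr1h4, also called FXR, fell (-0.67 ± 0.19), with all dosed rats between -0.73 and -0.60. The oxysterol receptor Nr1h3 fell (-0.39 ± 0.12) and the lipid receptor Ppara rose (0.60 ± 0.18). Nr1h3 lost its call in 3 and Ppara in 5 of 12 fits that left out 1 rat, with an adjusted p of up to 0.0895 without vehicle rat 1658 and 0.0907 without vehicle rat 1009. Ppara of dosed rat 7365 was at -0.11, below the vehicle mean, where the other 5 dosed rats lay at 0.70 or higher. In the 2 subsets that each left out 1 kind of rats in doubt, 2 and 1 of the factors fell and 0 rose.

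In bile acid metabolism 1 of 20 genes rose (5%) and 3 fell (15%), beside 4.92% and 4.1% of all rows, with a median of -0.11. Amacr, a racemase of the bile acid side chain, lay at -0.34 to -0.06 (median -0.25) in vehicle rats and at -1.75 to -1.08 (median -1.48) in dosed rats, without overlap (-1.22 ± 0.21). Baat, which conjugates bile acids to glycine and taurine, fell (-0.77 ± 0.24), and Cyp27a1, a sterol hydroxylase, rose (0.56 ± 0.16). Baat lost its call in 5 of 12 fits that left out 1 rat, with an adjusted p of up to 0.0700 without dosed rat 8596, and Cyp27a1 lost it without vehicle rat 1009 (adjusted p = 0.100). Nr0b2, the repressor induced by FXR, was at 1.16 ± 0.45 and did not pass (adjusted p = 0.1).

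In cholesterol synthesis 2 of 20 genes rose and 0 fell. Insig1, which holds the sterol sensor in the endoplasmic reticulum, lay at -0.65 to 0.30 (median -0.20) in vehicle rats and at 1.6 to 2.17 (median 1.8) in dosed rats (2.0 ± 0.35, adjusted p = 2.18e-05). Acat2, a cytosolic thiolase, rose by 0.54 ± 0.12. None of the other 18 passed, and the list median was 0.008. Among lipid genes outside the lists G0s2, an inhibitor of the lipase of fat droplets, differed by -2.0 ± 0.30, and Mid1ip1, an activator of acetyl-CoA carboxylase, by -1.66 ± 0.24. The G0s2 values of the dosed rats were spread from -2.96 to -1.02, all below the vehicle rats.

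Calls among inflammatory genes went in both directions. The list of cytokines, chemokines and the NF-kB pathway had 28 members measured, of which 2 rose (7.14%) and 3 fell (10.7%), beside 4.92% and 4.1% of all rows, with a median of -0.11. Besides Nfkbia the other rise was Il10, an anti-inflammatory cytokine, at 2.46 ± 0.41. It lay at -1.04 to 0.27 (median -0.32) in vehicle rats and at 0.98 to 3.89 (median 1.9) in dosed rats, but the 2 arrays of dosed rat 7365 read 7.22 and 0.57. Irf1, an interferon-response factor, fell (-0.44 ± 0.11), as did the bacterial lipoprotein receptor Tlr2 (-0.79 ± 0.23) and the adhesion molecule Icam1 (-0.49 ± 0.17), although Icam1 lost its call in 10 of 12 fits that left out 1 rat (adjusted p up to 0.098 without dosed rat 7763). All 3 falls lost their call with limma without the rats whose arrays did not mirror each other. The adjusted p was then 0.273 for Irf1, 0.193 for Tlr2 and 0.262 for Icam1. Tlr2 and Icam1 also lost it among rats with no array in the set of shared blank probes (adjusted p = 0.146 and 0.305). The neutrophil chemokine Cxcl1 was at -1.04 ± 0.65 and the monocyte chemokine Ccl2 at -0.40 ± 0.74, and neither passed. Of 20 acute phase genes 2 rose, the interleukin-6 receptor subunit Il6r and angiotensinogen, Agt. Il6r lay at -0.01 to 0.78 (median 0.34) in vehicle rats and at 1.67 to 2.12 (median 1.88) in dosed rats (1.53 ± 0.17, adjusted p = 9.56e-10). Agt lay at -0.09 to 0.57 (median 0.38) and 1.41 to 1.8 (median 1.5) (1.22 ± 0.17), again without overlap.

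Of 28 regulators of cell death 1 rose (3.57%) and 3 fell (10.7%), beside 4.92% and 4.1% of all rows. Bmf, a BH3-only protein that promotes apoptosis, lay at 0.08 to 0.38 (median 0.23) in vehicle rats and at -1.17 to -1.0 (median -1.06) in dosed rats (-1.31 ± 0.32). Cflar, which blocks caspase-8, fell (-0.83 ± 0.21), as did the tumour necrosis factor receptor Tnfrsf1a (-0.64 ± 0.15). The executioner caspase Casp6 rose slightly (0.37 ± 0.09). The members that fell thus include an apoptosis promoter, an inhibitor and a receptor. All 3 calls were lost with limma without the rats whose arrays did not mirror each other. The adjusted p was then 0.106 for Bmf, 0.314 for Cflar and 0.115 for Tnfrsf1a. Cflar also lost its call on arrays with own RNA in Cy5 alone, and its 2 arrays of dosed rat 7365 read -0.25 and -2.84.

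In the clock list 3 of 13 genes rose and 1 fell. Per2 fell (-1.41 ± 0.32), where its paralog Per1 was higher, and dosed rat 7365 was the lowest, at -2.95, with 2 arrays that read -1.18 and -4.71. Nfil3, a clock-linked repressor (0.54 ± 0.12), and the clock kinase Csnk1d (0.46 ± 0.11) rose. Among growth factors and their receptors Fgfr4, the main such receptor of hepatocytes, was 1 of 2 that rose in 19 genes (0.45 ± 0.09), and 2 fell. Each count was 10.5% of the list, beside 4.92% higher and 4.1% lower over all rows. Of 25 genes of TGF-beta and BMP signalling 1 rose (4%), the ligand Tgfb3 (1.06 ± 0.20), and 2 fell (8%). Inhbe, the liver activin subunit, lay at -0.31 to 0.31 (median 0.21) in vehicle rats and at -2.03 to -1.24 (median -1.75) in dosed rats, without overlap (-1.75 ± 0.27). Id4, an inhibitor of basic helix-loop-helix factors, was the other that fell (-0.58 ± 0.15), but its call was lost on the compared rats alone (adjusted p = 0.0511) and among rats with no array in the set of shared blank probes (-0.32, adjusted p = 0.46). Of 18 hypoxia targets 1 rose (5.56%, beside 4.92% of all rows), the glucose transporter Slc2a1 (0.59 ± 0.12). The 2 probes of Slc2a1, however, differed by -0.21 and 1.4 from vehicle.

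The 15 largest rises and 15 largest falls of genes with a symbol included several outside these roles. Ccn2, a matrix-associated growth factor, rose by 2.27 ± 0.33, and Pptc7, a mitochondrial phosphatase, by 2.21 ± 0.27. The dosed rats lay at 1.76 to 2.09 (median 2.01) for Pptc7 and the vehicle rats at -0.60 to 0.22 (median -0.34), without overlap. Noct, a rhythmic phosphatase of nicotinamide dinucleotides, rose by 2.16 ± 0.29, and Tmem116, a transmembrane protein, by 2.42 ± 0.31. The 3 probes of Noct differed from vehicle by 1.17 to 3.76. Dio3, which inactivates thyroid hormone, rose by 2.23 ± 0.39, but 2 arrays of vehicle rat 2698 read 1.10 and -3.21. For Tmem116 the 2 arrays of dosed rat 7763 read 3.42 and -0.32.

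Rup2, a gene of the urinary protein family by its symbol, had the largest fall. It lay at -2.61 to 0.30 (median -0.37) in vehicle rats and at -4.08 to -3.4 (median -3.92) in dosed rats, a difference of -3.0 ± 0.46 (adjusted p = 1.41e-06). The vehicle rats were spread more widely than the dosed rats, yet the groups did not overlap. Rgs3, a brake on G protein signals, fell (-2.54 ± 0.48), as did the homeobox factor Meox2 (-2.31 ± 0.37) and the zinc finger proteins Zfp467 (-2.15 ± 0.22), Zfp385b (-1.87 ± 0.26) and Zfp444 (-1.61 ± 0.12). Zfp444 had the smallest adjusted p among these falls (1.89e-15), with vehicle rats at 0.01 to 0.57 (median 0.32) and dosed rats at -1.52 to -1.04 (median -1.39). The cytoskeletal proteins Palmd (-2.02 ± 0.27) and Lims2 (-1.62 ± 0.18) and the scaffold Anks4b (-1.63 ± 0.16) completed the set. Lims2 was tight in both groups, at -0.08 to 0.12 (median -0.02) in vehicle rats and -1.84 to -1.47 (median -1.57) in dosed rats.

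Over the 15 largest rises, the median gene of each dosed rat lay between 1.88 and 2.75 and that of each vehicle rat between -0.56 and -0.07. Over the 15 largest falls the dosed rats lay between -2.09 and -1.48 and the vehicle rats between -0.20 and 0.34. The choice of these genes fixes that the groups part, and the values show only how evenly the 6 dosed rats responded.

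Many functions of the liver gave no call at this time. With limma no member passed among 22 genes of fatty acid oxidation and ketogenesis, 18 apolipoprotein genes, 29 coagulation, complement and serpin genes, 36 respiratory chain genes, 41 cytosolic ribosomal protein genes, 26 ubiquitin and proteasome genes, 16 genes of the growth hormone and IGF axis and 11 pericentral genes. At an unadjusted p under 0.05 there were 0, 0, 1, 2, 2, 3, 2 and 0, in that order. Their list medians lay between -0.009 and 0.09. Fewer cells of a type and less RNA per cell cannot be told apart in whole liver.

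Marker genes of liver cell types showed little difference between the groups. No marker passed among 10 of hepatocytes, 10 of Kupffer cells and macrophages, 7 of neutrophils and monocytes, 15 of lymphocytes, 9 of cholangiocytes and 6 of erythroid cells, of which 0, 0, 0, 3, 1 and 1 had an unadjusted p under 0.05. The mean over the hepatocyte markers ranged from -0.08 to 0.39 in vehicle rats and from 0.10 to 0.29 in dosed rats. The mean over the neutrophil and monocyte markers ranged from -0.26 to 0.07 and from -0.34 to -0.14. For Kupffer cells it ranged from -0.11 to 0.29 and from 0.14 to 0.28. Of 10 markers of sinusoidal endothelium 1 rose, and of 13 markers of stellate cells and fibroblasts 0 rose and 2 fell, the pericyte genes Pdgfrb (-0.64 ± 0.16) and Rgs5 (-0.38 ± 0.09). Both calls were lost without the rats whose arrays did not mirror each other (adjusted p = 0.0598 and 0.160), that of Pdgfrb also among rats with no array in the set of shared blank probes (adjusted p = 0.174) and that of Rgs5 on arrays with own RNA in Cy5 alone. The part of cell composition in the other results was not tested. A log ratio to a pool gives no absolute level, so whether a marker was present or absent could not be read.

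The next lower dose, 1500 mg/kg, was given to 6 other rats killed at 3 h. Against the same 6 vehicle rats 1110 rows, or 5.85%, were called, and since both comparisons share those rats their values are set side by side and not tested for likeness. Slc38a2 differed from vehicle by 3.31 ± 0.40 at 1500 and 3.63 ± 0.40 at 2000 mg/kg. Dusp6 differed by -2.41 ± 0.35 and -2.79 ± 0.35, and Foxa2 by -2.09 ± 0.33 and -2.65 ± 0.33. The glucocorticoid-responsive list gave 11 rises and 1 fall at both doses, with medians of 0.70 and 0.75.

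Tested directly, the 6 rats at 2000 mg/kg differed from the 6 at 1500 mg/kg in 2 rows, or 0.0105%, where 793 rows had an unadjusted p under 0.05. Both were lower at the higher dose, and neither has a gene symbol. Probe 20554 lay at a mean of -2.03 at 2000 mg/kg, -1.28 at 1500 mg/kg and 0.03 in vehicle rats (difference -0.75 ± 0.13, adjusted p = 0.00221). Probe 4206 lay at -2.05, -1.08 and -0.29 (difference -0.97 ± 0.17, adjusted p = 0.00221). Of the named genes, G0s2 was at -2.0 ± 0.30 at 2000 and -0.85 ± 0.30 at 1500 mg/kg, a difference between the doses of -1.15 ± 0.30 (adjusted p = 0.428). Il10 was at 2.46 ± 0.41 and 0.77 ± 0.41, a difference of 1.69 ± 0.41 (adjusted p = 0.261). These genes were chosen here after their values were seen, and neither passed, which does not show that the doses act alike.

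Other rats were killed at 6 h and 24 h, each with vehicle rats and a pool of their own. At 2000 mg/kg 2116 rows, or 11.1%, were called at 6 h and 4609, or 24.3%, at 24 h. Of the 934 rows that rose at 3 h, 302 also rose at 6 h, which is 32.3% of the 3 h rises and 29.99% of the 6 h rises. Of the 779 that fell, 245 also fell at 6 h, or 31.5% and 22.1% of the 2 lists. At 24 h 209 of the rises and 184 of the falls were called in the same direction, and 92 and 105 in the opposite direction. The comparison of 3 h with 6 h is set between rats with separate controls, so that no animal is shared.

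The effect of 2000 mg/kg at 3 h differed from that at 6 h in 656 rows, or 3.46%, of which 284 were higher and 372 lower at 3 h. Osgin1 turned direction: it was at -1.86 ± 0.36 at 3 h and 1.35 ± 0.36 at 6 h, a difference of -3.21 ± 0.51 (adjusted p = 2.25e-05). Cxcl1 was not called at 3 h and was at 2.8 ± 0.65 at 6 h, a difference of -3.84 ± 0.93. Slc13a5, the citrate transporter, was at 0.62 ± 0.44 and 2.67 ± 0.44, a difference of -2.06 ± 0.62. The falls of Rup2 (-3.08 ± 0.64), Dusp6 (-2.09 ± 0.49), Foxa2 (-1.96 ± 0.46), G0s2 (-2.12 ± 0.42) and Zfp385b (-2.07 ± 0.37) were deeper at 3 h, and at 6 h none of the 5 was called. Among effects that were higher at 3 h, Alas1 was at 2.84 ± 0.33 and then 0.73 ± 0.33, a difference of 2.12 ± 0.46 (adjusted p = 0.00276). Sgk1 was at 1.65 ± 0.30 and then -0.61 ± 0.30, a difference of 2.26 ± 0.43, and Insig1 at 2.0 ± 0.35 and then -0.71 ± 0.35, a difference of 2.71 ± 0.49. Il10 differed by 3.37 ± 0.57, with the uneven arrays described above, and Nr0b2 by 2.82 ± 0.64. Stac3 (2.48 ± 0.55), Nrep (2.45 ± 0.62) and Gucy1b2 (2.56 ± 0.46) were also higher at 3 h than at 6 h. These 3 were called lower than vehicle at 6 h but not at 3 h. Gucy1b2, at -0.89 at 3 h, did pass there with limma on the compared rats alone (adjusted p = 0.000856).

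Against 24 h, the effect at 3 h differed in 2987 rows, or 15.7%, of which 1631 were higher and 1356 lower at 3 h. Akr7a3, an aldehyde reductase of detoxification, was at 0.06 ± 0.22 at 3 h and 3.88 ± 0.22 at 24 h, a difference of -3.82 ± 0.30 (adjusted p = 7.8e-15). Osgin1 (-3.68 ± 0.51), the protease inhibitor A2m (-3.71 ± 0.75), Trib3 (-3.09 ± 0.48), the serine enzyme Phgdh (-3.05 ± 0.38), Zfand2a (-3.01 ± 0.70), Ccl2 (-3.01 ± 1.04) and Dusp6 (-3.28 ± 0.49) were lower at 3 h as well. The largest differences the other way were in Stac3 (4.84 ± 0.55) and Insig1 (4.15 ± 0.49). Insig1 was at -2.15 ± 0.35 at 24 h, below vehicle. Car7 (3.6 ± 0.46), Nr0b2 (3.4 ± 0.64), Sds (3.38 ± 0.54), Sez6 (3.3 ± 0.51), Nrep (3.27 ± 0.62) and the fatty acid desaturase Fads1 (3.2 ± 0.37) followed. Of these 6 genes Sds alone was called higher than vehicle at 3 h.

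**Figure D4:**
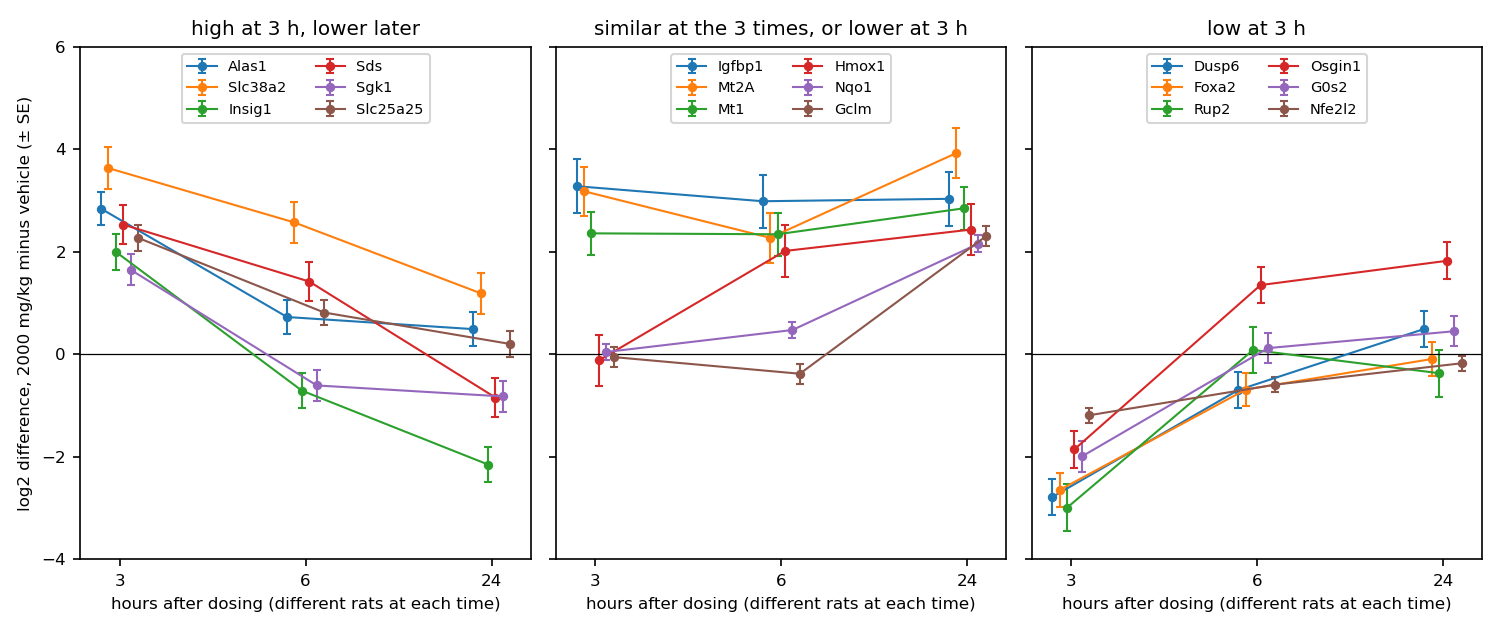
Log2 difference of 2000 mg/kg minus vehicle at 3, 6 and 24 h, with its SE, for 18 genes, from different rats at each time, with the 3 times spaced evenly and not to scale. Alas1 and Insig1 were highest at 3 h, Igfbp1 lay near 3 at every time, Hmox1, Nqo1 and Gclm were near 0 at 3 h, and Osgin1 went from -1.86 to 1.82.

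Whole lists also differed between the times. Over all 18978 rows the effect at 3 h was higher than at 24 h in 1631 and lower in 1356, together 15.7% of rows. Against 6 h it was higher in 284 and lower in 372, together 3.46%. Of the 30 NRF2 targets 22 had a lower effect at 3 h than at 24 h and 0 a higher one, beside 26 that rose at 24 h. Of 22 heat shock genes 16 and of 26 ubiquitin and proteasome genes 18 were lower at 3 h than at 24 h, and 0 were higher in either list. Of 20 cholesterol synthesis genes 17 were higher at 3 h than at 24 h and 1 was lower. For the 18 glucocorticoid-responsive genes 6 were higher at 3 h than at 24 h and 1 lower, and against 6 h 2 were higher and 0 lower. Igfbp1 was at 3.28 ± 0.52, 2.99 ± 0.52 and 3.04 ± 0.52 at the 3 times, and neither difference between times passed (adjusted p = 0.897 and 0.881). Mt2A was at 3.18 ± 0.48, 2.27 ± 0.48 and 3.93 ± 0.48, where the differences of 0.91 ± 0.68 and -0.74 ± 0.68 did not pass either.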

How the data were processed

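The authors deposited 1 processed value per probe and array, and a table that gives each rat's dose. The deposited values were taken as log10 ratios of Cy5 over Cy3. Their base and direction, and how background and dyes were handled, are not given in the sources used. Array medians as deposited lay between 0 and 0.000258, and 7.29% of values on the 24 arrays were exactly 0 and 0.661% blank. Values were put on the log2 scale and the sign was flipped on arrays where the rat's RNA carried Cy3. Probes of 1 symbol and then the 2 arrays of each rat were averaged, so that n counts rats. Of the named genes, Slc2a1 and Hmox1 had probes that differed in sign. Probes of others differed in size, such as Anks4b (-2.71 and -0.54), Zfp36 (0.31 and 1.59) and Chac1 (0.42 and 1.76). The dose table lacks leading zeros of some rat numbers, which were matched without them.

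Of 22075 probes, 12750 had 1 symbol in the platform annotation, 5 several and 9320 none, which gave 18978 rows. Contrasts of 12 group means were fitted to 72 rats with limma 3.58.1 (R 4.3.3) and adjusted by Benjamini-Hochberg at 0.05. The fit was tested on simulated data. Tables and figures were made with Python 3.11.15, pandas 2.3.3, NumPy 2.4.6 and matplotlib 3.10.9. Each gene has 1 pooled spread for the 12 groups. Its SE is therefore too small where the compared groups vary more than the rest, and too large where they vary less.

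The members and the 50 lists (1247 entries, 962 measured) were chosen with earlier results of these data known. Named genes were the 15 highest and 15 lowest differences that passed with 6 of 6 dosed rats on 1 side of the vehicle mean, members among the 5 of smallest p in each list, the 8 largest differences each way between doses and times, and genes that bear on the direction. Promoters are RefSeq's, build GRCr8, matched by symbol. Alternatives were centring each array, 1 dye orientation alone, 1 row per probe, complete rows, zeros as missing, the compared groups alone, the rat as a random block over all arrays, quality weights per rat, a 1.5-fold minimum, the blank-probe set as a covariate or left out, and each rat left out. Leaving out rats whose arrays did not mirror each other was chosen after seeing the data.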

Additional observations from a re-analysis of the deposited data

Results flagged for a closer look

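Among the genes named above, 248 groups of 6 rats were examined for a rat whose gap to the nearest other was too large a share of the range by Dixon's criterion, and 19 had one. Chance gives about 1 in 20 groups. The most frequent was dosed rat 7365, whose 2 arrays did not mirror each other. It was at -0.11 for Ppara, 0.10 for Icam1, -0.81 for Tnfrsf1a, -2.95 for Per2, 0.99 for Csnk1d and -0.22 for Ccne1, where the other dosed rats lay at 0.70 to 1.02, -0.39 to -0.24, -0.40 to -0.23, -1.95 to -1.42, 0.61 to 0.68 and 0.69 to 1.15. Dosed rat 7763 was at -0.62 for Pdgfrb, -0.040 for Stac3 and -2.41 for Nrep. Dosed rat 2730 was at 0.45 for Pik3r1 and dosed rat 4176 at 0.50 for Car7, below the other dosed rats.

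Among vehicle rats, 2698 was the lowest for Slc11a2 (-0.77), Irf1 (-0.58) and Ccl2 (-3.44). For Ccl2 its 2 arrays read -0.29 and -6.59, and the other vehicle rats lay at -0.16 to 0.36. Vehicle rat 1009 was the highest for Nat1 (0.045) and Tp53inp1 (0.22). Vehicle rat 5557 was the lowest for Cxcl1 (-1.32) and the highest for Fads1 (0.58) and Gclm (0.63).

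The effect of 2000 mg/kg differed between 3 h and 6 h by a test of the difference itself in the 16 genes named for the largest such differences, and other named genes passed this test too. It was higher at 3 h by 2.12 for Alas1, 3.37 for Il10, 2.26 for Sgk1, 2.71 for Insig1, 2.82 for Nr0b2, 2.56 for Gucy1b2, 2.48 for Stac3 and 2.45 for Nrep. The difference was -3.08 for Rup2, -2.09 for Dusp6, -1.96 for Foxa2, -2.12 for G0s2, -2.07 for Zfp385b, -3.21 for Osgin1, -3.84 for Cxcl1 and -2.06 for Slc13a5. Between 3 h and 24 h it was 3.38 for Sds, 4.15 for Insig1, 3.4 for Nr0b2, 4.84 for Stac3, 3.27 for Nrep, 3.6 for Car7, 3.3 for Sez6 and 3.2 for Fads1. It was -3.28 for Dusp6, -3.68 for Osgin1, -3.82 for Akr7a3, -3.71 for A2m, -3.09 for Trib3, -3.05 for Phgdh, -3.01 for Zfand2a and -3.01 for Ccl2.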

How the results depend on the processing

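None of the 100 named genes called at 3 h and 2000 mg/kg against vehicle reversed direction under any alternative run, whereas among named genes that were not called some differences near 0 changed sign, such as Akr7a3 from 0.06 to -0.28 without the rats that did not mirror. Of the called genes, all 100 kept the call with centring and with exact zeros as missing, as did all 95 that had a value on every array. The call was kept by 99 with the rat as a random block or with quality weights, 97 with the blank-probe set as a covariate, 93 with the compared groups alone, and 88 and 90 with either dye orientation alone. Fewer kept it among rats outside the blank-probe set (77), with a 1.5-fold minimum (82) and without the rats whose arrays did not mirror each other (63), both subsets of rats being smaller by construction. When each rat was left out in turn, 86 kept the call every time.

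The count of 1713 rows for 2000 mg/kg against vehicle became 1113 with own RNA in Cy3 alone, 833 with a 1.5-fold minimum, 871 among rats outside the blank-probe set and 666 without the rats that did not mirror, and 1429 to 1785 with 1 rat left out. The 2 rows for 2000 against 1500 mg/kg became 1 with complete rows, 0 with the compared groups alone, 19 with the random block, 23 with quality weights, 5 outside the blank-probe set and 1 without the rats that did not mirror, and 2 to 3 with 1 rat left out. The 656 rows that differed between 3 h and 6 h became 320 with own RNA in Cy3 alone, 986 with the compared groups alone, 1339 with the random block, 1267 with quality weights, 435 with a 1.5-fold minimum, 204 outside the blank-probe set and 155 without the rats that did not mirror, and 504 to 765 with 1 rat left out. The 2987 rows that differed between 3 h and 24 h became 1831 with a 1.5-fold minimum, 1436 outside the blank-probe set and 1681 without the rats that did not mirror, and 2605 to 3182 with 1 rat left out. Where a subset of rats was not the reason, the cause was not tested. No paired analysis was possible because each rat number belongs to 1 rat of 1 group.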
